A study of Drosophila melanogaster with 18 samples.

Results

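The Jonah genes of Drosophila melanogaster are a family of genes for secreted serine proteases, and 10 of them were followed here across embryos in which the E2F/Rb pathway had been altered. A probe set was taken as a member when its annotated gene symbol, alone or among several, was Jon25Bi, Jon25Bii, Jon25Biii, Jon44E, Jon65Aiii, Jon65Aiv, Jon66Ci, Jon66Cii, Jon99Fi or Jon99Fii. This gave 10 probe sets of 13966, each annotated to a single gene. The array carried 17 probe sets for Jonah genes in all, and the other 7, of 6 further Jonah genes, were counted separately.

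Jonah proteases are chymotrypsin-like enzymes made by cells of the midgut, secreted into the gut lumen, and used there to cut dietary protein. The embryonic midgut comes from anterior and posterior endoderm that fuses around the yolk, and its cells take on digestive functions late in embryogenesis, before the larva feeds. E2F1 and E2F2 are transcription factors that bind DNA with their partner Dp and control genes of DNA replication and the cell cycle. Rbf1, the fly retinoblastoma protein, binds E2F and holds its targets down.

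RNA of whole embryos was hybridised to 18 Affymetrix arrays, 2 for each of 9 groups. Embryos were 8 to 10 h old in 7 groups and 14 to 16 h old in 2. In 4 of the younger groups the driver Arm-Gal4, in which the broadly active armadillo promoter drives the yeast activator Gal4, was crossed to UAS transgenes for E2f1 with Dp, for E2f2 with Dp, for the E2f1 fragment E2f1336-805, which lacks the DNA-binding domain and is labelled dominant negative, or for Rbf1. The mutants carried the null alleles Dpa2/Dpa4 at 8 to 10 h, or E2f17172/E2f191 at both ages. At 8 to 10 h they were taken with an automated embryo sorter as the embryos without the Kr-GFP balancer (CyO for Dp, TM3 for E2f1), and the older E2f1 mutants were picked by hand. The control at both ages was Arm-Gal4 crossed to yw, so the driver is shared by the control and the over-expression crosses, and the labels name no driver for the mutants. Each sample pooled about 200 to 700 embryos from 2 h collections aged at 25 °C. Parents of the mutants were heterozygous, so maternal product may be present in them, and sorting, balancer stock and absence of the driver cannot be told apart from the mutant genotype.

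The deposited values are linear signals. Array medians lay between 209.15 and 247.75, and the correlation of the arrays of a group across probe sets lay between 0.894 and 0.951. The altered genes were read on the same arrays. E2f1 had 350.5 and 820.2 in E2f1 mutants, against 2680.5 and 1317.6 in control embryos at 8 to 10 h. At 14 to 16 h E2f1 had 543.4 and 421.1 in E2f1 mutants, against 583.4 and 563.7 in control embryos, a log2 difference of -0.20 (limma, adjusted p = 0.912), so its transcript does not mark the older mutants. Dp had 512.5 and 695.8 in Dp mutants, against 2122.2 and 1615.4 in control embryos at 8 to 10 h. On the arrays labelled Rbf1, E2f1 had 3233 and 8814.2, against the same control values of 2680.5 and 1317.6, so the replicates of the Rbf1 cross stand apart in that gene. Both lay above both control arrays, with a log2 difference of 1.82 that did not pass (limma, adjusted p = 0.125). With E2f1 and Dp, E2f1 had 9991 and 6412.9. The source of the E2f1 signal in the Rbf1 cross was not tested. The labels do not say whether the samples of a group came from separate crosses, so p-values measure the spread between these samples, which may be technical.

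The arrays of a group differed widely for several members, which touches every comparison with control embryos at 8 to 10 h. Jon25Biii had 198.4 and 1686.1 on the control arrays, and Jon99Fi had 208.4 and 1124.6. By deposited signal the second control array was the higher for all 10 members, and the first of the Dp mutant arrays was the higher for 9 of them. After normalization Jon66Ci had log2 levels of 5.68 and 5.57 on the control arrays, the second being the one at the floor. A stage index was computed to place each array in time. It used the 300 probe sets that rose most and the 300 that fell most with age in control embryos. Its mean was set to 0 in control embryos at 8 to 10 h and to 1 at 14 to 16 h. Left out were genes of the lists used here, many ribosomal protein, replication and cell cycle genes, and probe sets over 10000 on any array. Those control arrays both picked the probe sets and set 0 and 1, which by itself can move other groups inside that range. The index was -0.043 and 0.043 on the younger control arrays, and the mean log2 level of the 10 members there was 7.61 and 9.17. The index was 0.304 and 0.148 on the Dp mutant arrays and 0.192 and 0.222 on the E2f1 mutant arrays at 8 to 10 h, above every control array of that age. The members' mean log2 level was 11.61 and 10.17 in those Dp mutants and 9.99 and 10.03 in those E2f1 mutants. Larval cuticle genes, which epidermal cells express late in embryogenesis, had a summed signal over 7 probe sets of 43667 and 18377 in Dp mutants, 15592 and 25777 in E2f1 mutants, and 11501 and 25441 in control embryos at 8 to 10 h. Of these 7 probe sets, 1, 1 and 2 were at the floor on both arrays of Dp mutants, E2f1 mutants and control embryos. The part of embryo age in the differences at 8 to 10 h was not tested. The setting of the control level by this index, given below, cannot settle it.

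**Figure D1:**
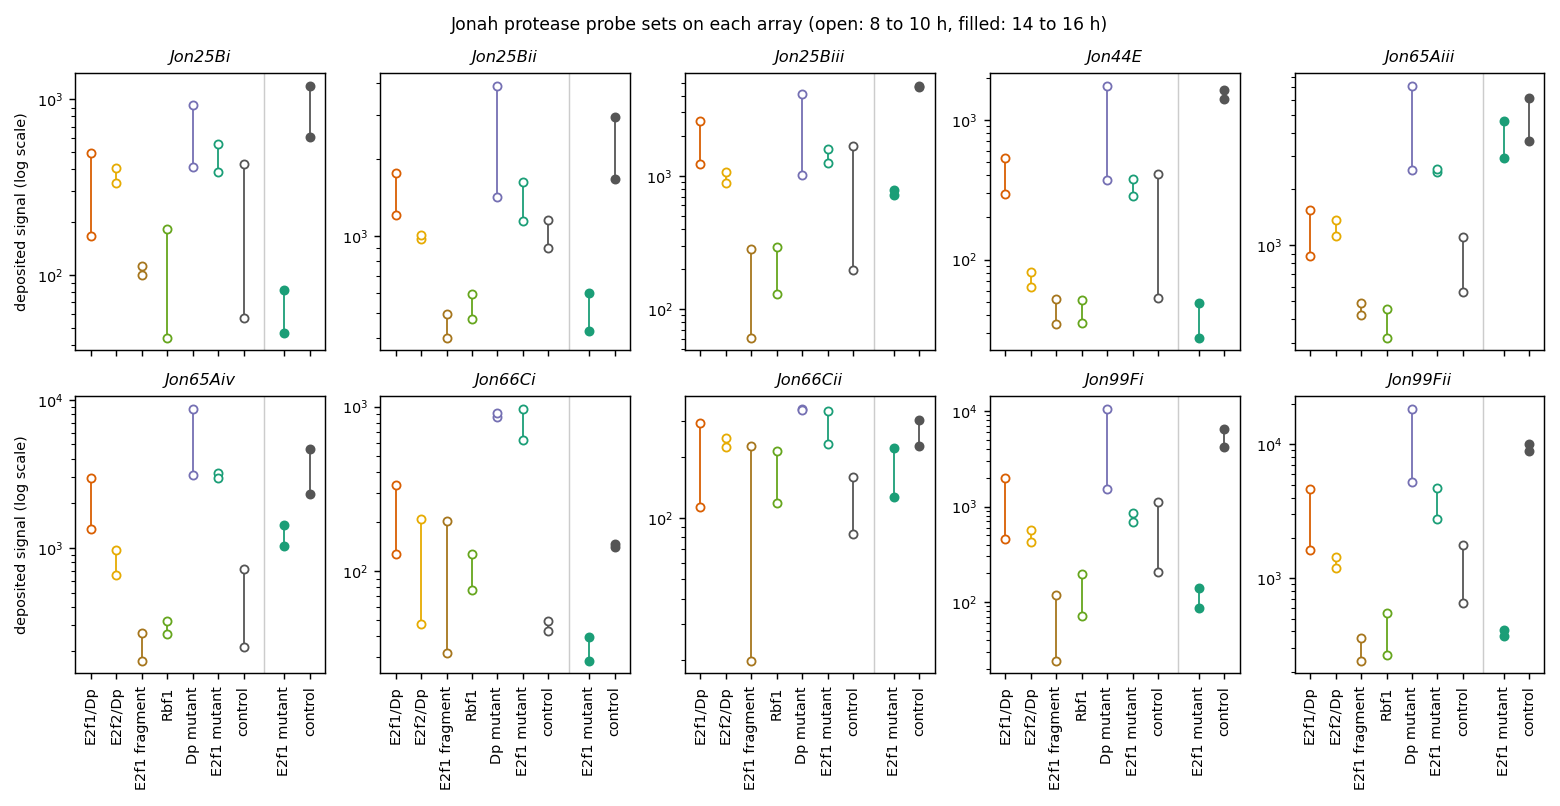
Deposited signal (log axis) of the 10 Jonah genes on each of the 18 arrays, with 1 panel for each gene, the 9 groups along the horizontal axis, points for arrays (open at 8 to 10 h, filled at 14 to 16 h) and a line joining the 2 arrays of a group. At 14 to 16 h the Jon99Fi points sit at 139.6 and 87.6 in E2f1 mutants and at 4204.9 and 6526.5 in control embryos, while those of Jon65Aiii sit at 4624.3 and 2915.3 in E2f1 mutants and at 6152.3 and 3610.7 in control embryos.

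The members lie in small clusters, and the arrangement is used below because neighbours did not always share a pattern. Jon25Biii, Jon25Bii and Jon25Bi follow each other on chromosome arm 2L with no other gene between them in the RefSeq table. Jon65Aiv and Jon65Aiii are adjacent on 3L, followed by Jon65Aii and Jon65Ai, and Jon66Ci and Jon66Cii are adjacent on the same arm. Jon99Fii and Jon99Fi are adjacent on 3R, and Jon44E stands apart from the rest on 2R. Adjacent members are close paralogues, and the probe set of Jon99Fii is of a type that Affymetrix marks as shared by a gene family, so its signal may include transcripts of Jon99Fi and other relatives.

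In control embryos the Jonah genes were higher at 14 to 16 h than at 8 to 10 h. Jon99Fi had 4204.9 and 6526.5 at 14 to 16 h, against 208.4 and 1124.6 at 8 to 10 h. Jon44E, the member that lies alone, had 1400.7 and 1628.9 at 14 to 16 h, against 53.2 and 408.8 at 8 to 10 h. Jon65Aiv had 4668 and 2316.6 at 14 to 16 h, against 213.3 and 715.5 at 8 to 10 h. Both older arrays exceeded both younger arrays for each of the 10 members. In this comparison 29.9% of all units were higher without overlap of the arrays.

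By the limma fit over all 18 arrays, 8 of the 10 members rose with age in control embryos at an adjusted p under 0.05, where 17.6% of the 8975 units tested rose. The largest changes were those of Jon99Fi (log2 change 3.31 ± 0.87 SE, adjusted p = 0.00663) and Jon44E (3.25 ± 0.75, adjusted p = 0.00265). Jon65Aiv rose by 3.0 ± 0.53 (adjusted p = 0.000381), Jon99Fii by 2.99 ± 0.56 (adjusted p = 0.000609) and Jon65Aiii by 2.54 ± 0.44 (adjusted p = 0.000288). The 25B genes passed as well, with Jon25Biii rising by 2.88 ± 0.82, Jon25Bi by 2.37 ± 0.81 and Jon25Bii by 1.13 ± 0.40. The adjacent Jon66Ci and Jon66Cii did not pass, with log2 changes of 1.43 (adjusted p = 0.115) and 1.09 (adjusted p = 0.173). The median log2 change over the 10 members was 2.71, beside -0.19 over all units tested, and 1.69 without the first of the younger control arrays. The count rested on the younger control arrays: without the first of them 3 members passed (Jon65Aiii, Jon65Aiv and Jon99Fii). Without the first of the older control arrays 6 passed, Jon25Bi and Jon25Bii being those lost. Whole-embryo RNA cannot tell more gut cells from more Jonah RNA in each gut cell.

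In E2f1 mutants the same interval of age gave lower Jonah signals. Jon99Fii had 409.6 and 371.2 in mutants at 14 to 16 h, against 2789.6 and 4750.4 in mutants at 8 to 10 h. Jon66Ci had 39.8 and 28.4 in mutants at 14 to 16 h, both at or under the floor of 47.5 below which signals were not ranked, against 970.8 and 629 in mutants at 8 to 10 h. Both older arrays lay below both younger arrays for 9 members, as they did for 39.5% of all units. The exception, Jon65Aiii, had 4624.3 and 2915.3 at 14 to 16 h, against 2464.9 and 2547.8 at 8 to 10 h.

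Of the 10 members, 6 fell with age in E2f1 mutants and none rose, where 21.7% of all units fell. Jon66Ci fell by at least 16.5-fold (adjusted p = 0.000414) and Jon99Fii by 3.16 ± 0.56 on the log2 scale (adjusted p = 0.00051). Jon25Bi, Jon99Fi, Jon44E and Jon25Bii changed by -2.80, -2.69, -2.57 and -1.34, with adjusted p between 0.0138 and 0.0257. Jon65Aiv (-1.37, adjusted p = 0.0587), Jon25Biii (-0.85) and Jon66Cii (-0.61) did not pass, and Jon65Aiii had a change of 0.38 (95% interval -0.55 to 1.31, adjusted p = 0.541). The median over the members was -1.97, beside -0.15 over all units. Leaving out any of the 4 mutant arrays reduced the count. Without the first array at 14 to 16 h 3 members passed, Jon25Bi, Jon44E and Jon99Fi being lost, and without the second 4 passed, Jon25Bii and Jon99Fi being lost. Without the first array at 8 to 10 h 4 passed, Jon25Bi and Jon99Fi being lost, and without the second 3 passed, Jon25Bii, Jon44E and Jon99Fi being lost. Jon66Ci and Jon99Fii passed without each of the 4.

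At 14 to 16 h the signals of Jon99Fi, Jon99Fii, Jon44E and the 25B genes were low in E2f1 mutants beside control embryos. Jon99Fi had 139.6 and 87.6 in E2f1 mutants, against 4204.9 and 6526.5 in control embryos. Jon99Fii had 409.6 and 371.2 in E2f1 mutants, against 9984 and 8930.2 in control embryos. Jon44E had 27.5 and 48.9 in E2f1 mutants, the first of them under the floor, against 1400.7 and 1628.9 in control embryos. For these genes the mutant arrays lay far below the control arrays and close to each other. In the 25B cluster Jon25Bi had 46.6 and 82.4 in E2f1 mutants, against 1196.3 and 611.5 in control embryos. Jon25Bii had 600.6 and 423.1 in E2f1 mutants, against 2946.7 and 1678 in control embryos. Jon25Biii had 715.6 and 786.8 in E2f1 mutants, against 4659.6 and 4742.2 in control embryos, again with no overlap.

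Of the 10 members, 5 were lower in E2f1 mutants at 14 to 16 h and none was higher, where 3.84% of all units were lower. Jon99Fi had the lowest log2 difference of all 8975 units, -5.43 ± 0.87 (43.1-fold lower, adjusted p = 0.00152). Jon44E was 29.0-fold lower (-4.86 ± 0.75, adjusted p = 0.0011) and Jon99Fii 20.6-fold lower (-4.36 ± 0.56, adjusted p = 0.000314). Jon25Bi was 13.4-fold lower (-3.75 ± 0.81, adjusted p = 0.012), with 1 of the mutant arrays at the floor, and Jon25Bii 4.09-fold lower (-2.03 ± 0.40, adjusted p = 0.00576). Jon25Biii, between them in size at -2.51 ± 0.82, did not pass (adjusted p = 0.0937). All 10 differences were negative, 8 of them with no overlap between the arrays, as 23.1% of all units had in that direction. The median was -2.27, beside 0.06 over all units. Jon44E, Jon99Fi and Jon99Fii passed without each of the 4 arrays in turn. Jon25Bi was lost without the first control array or the first mutant array, and Jon25Bii without the first control array or the second mutant array, which left 3 members without the first control array and 4 without either mutant array.

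Jon65Aiii was among the members that did not pass at this age, and its difference was the smallest of them. It had 4624.3 and 2915.3 in E2f1 mutants, against 6152.3 and 3610.7 in control embryos, and the arrays of the groups overlapped. Its log2 difference was -0.46 with a 95% interval of -1.39 to 0.47 (adjusted p = 0.669), an interval that shares no value with that of Jon99Fii (-5.57 to -3.16). The difference between these genes was not itself tested. The adjacent Jon65Aiv had 1420.4 and 1022.8 in E2f1 mutants, against 4668 and 2316.6 in control embryos, and did not pass (-1.41 ± 0.53, adjusted p = 0.154). Jon66Ci, at the floor on both mutant arrays, had 145.3 and 139.5 in control embryos and did not pass either (adjusted p = 0.282). Jon66Cii had 220.8 and 126.4 in E2f1 mutants, against 302.4 and 225.6 in control embryos, with overlap (-0.54 ± 0.62, adjusted p = 0.746).

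**Figure D2:**
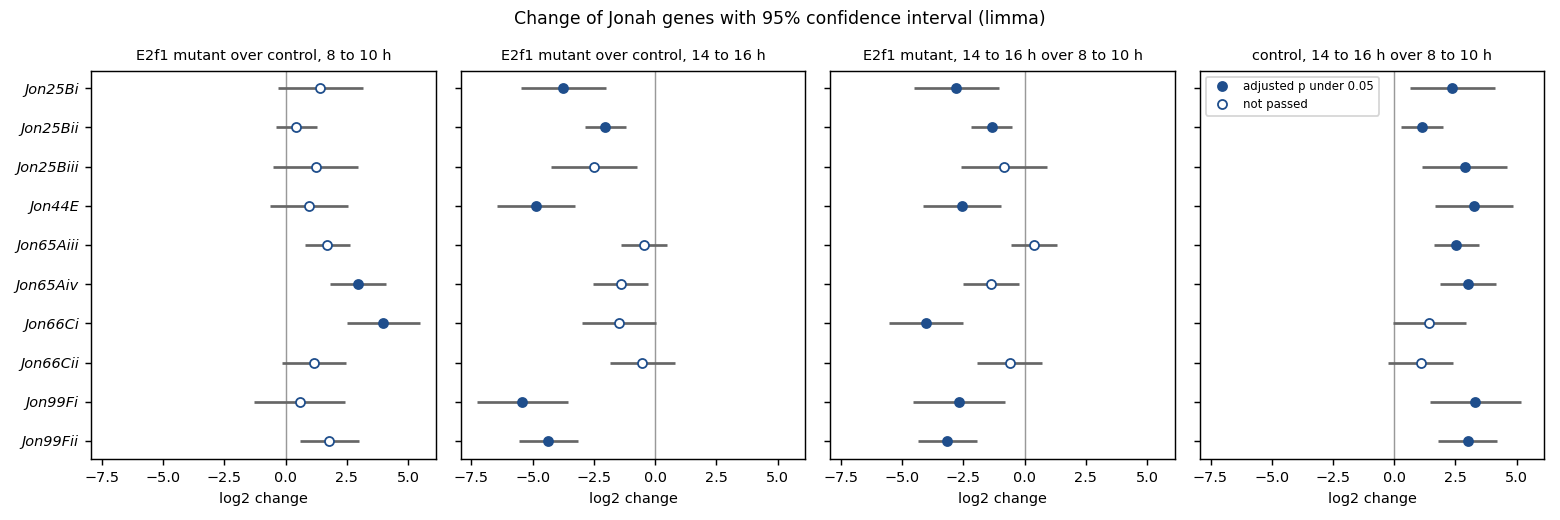
Log2 change with 95% intervals (horizontal axis) for the 10 Jonah genes (vertical axis) in 4 panels: E2f1 mutants over control embryos at 8 to 10 h, the same at 14 to 16 h, and embryos of 14 to 16 h over those of 8 to 10 h in E2f1 mutants and in control embryos. Filled points passed at an adjusted p under 0.05. Jon99Fi sits at 0.57, -5.43, -2.69 and 3.31 in the order of the panels, and Jon65Aiii at 1.70, -0.46, 0.38 and 2.54.

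Markers of other tissues and the stage index are given beside the differences at 14 to 16 h. The index was 0.891 and 0.882 on the E2f1 mutant arrays, against 1.002 and 0.998 on the control arrays, so the mutants lay nearer the older than the younger control embryos. A value under 1 can arise in part from picking the probe sets of the index on those control arrays. The members' mean log2 level was 8.20 and 8.02 in those mutants, against 10.97 and 10.61 in control embryos, and it was 7.61 and 9.17 in control embryos at 8 to 10 h. Of 7 muscle markers tested, 0 passed between E2f1 mutants and control embryos at 14 to 16 h, and 7 rose with age in each genotype. Their summed signal was 96701 and 86333 in E2f1 mutants, against 86508 and 88689 in control embryos. Summed larval cuticle signal was 43969 and 36992 in E2f1 mutants, against 56311 and 50322 in control embryos, with 0 of 4 genes tested passing. Of 5 haemocyte markers, 2 neuron markers and 5 salivary gland and fat body markers tested, 0 passed. The part of age or tissue makeup in the Jonah differences was not tested.

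**Figure D3:**
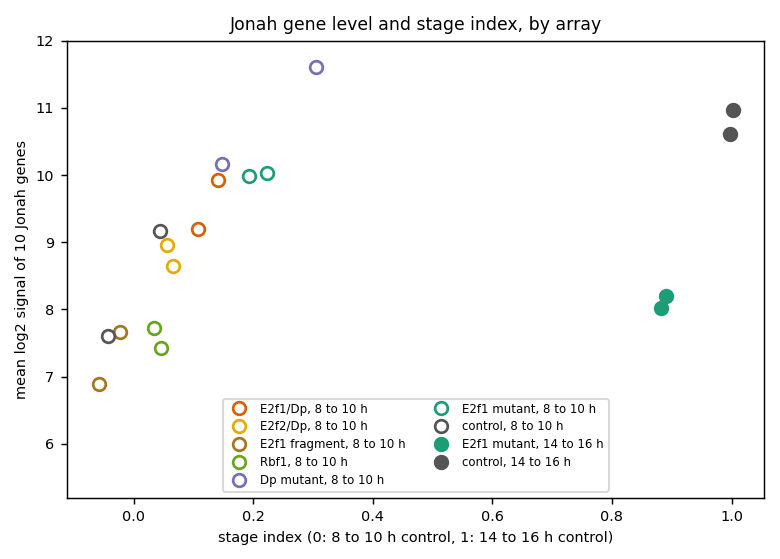
Mean log2 level of the 10 Jonah genes (vertical axis) against the stage index (horizontal axis, 0 for control embryos at 8 to 10 h and 1 at 14 to 16 h), 1 point for each of the 18 arrays, coloured by group and filled at 14 to 16 h. The E2f1 mutant arrays at 14 to 16 h lie at an index of 0.891 and 0.882 with levels of 8.20 and 8.02, below the levels of 10.97 and 10.61 of control arrays of that age.

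At 8 to 10 h the mutants differed from control embryos in the other direction, with the largest differences in Jon66Ci and Jon65Aiv for both genotypes. Jon66Ci had 970.8 and 629 in E2f1 mutants and 861 and 915.4 in Dp mutants, against 43.3 and 49.3 in control embryos. Jon65Aiv had 3183.9 and 2971.6 in E2f1 mutants and 8684.8 and 3085.5 in Dp mutants, against 213.3 and 715.5 in control embryos. The mutant arrays of both kinds lay above both control arrays for each of these genes. E2f1 and Dp mutants were compared with the same 2 control arrays, so their values stand side by side and are not independent.

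In E2f1 mutants at 8 to 10 h, 2 of 10 members were higher and none was lower, where 1.2% of all units were higher. They were Jon66Ci (log2 difference 3.99 ± 0.70, adjusted p = 0.0066) and Jon65Aiv (2.96 ± 0.53, adjusted p = 0.00728). For Jon66Ci 1 of the control arrays was at the floor, so only 1 measured it. Jon65Aiii, next to Jon65Aiv, had 2464.9 and 2547.8 in E2f1 mutants, against 561.4 and 1099.1 in control embryos, and missed the threshold (1.70 ± 0.44, adjusted p = 0.0527). Jon99Fii did not pass (1.78 ± 0.56, adjusted p = 0.0998). Jon99Fi, which had the lowest difference of all units at the later age, had 681.4 and 853.6 in E2f1 mutants, against 208.4 and 1124.6 in control embryos, with overlap (0.57, 95% interval -1.30 to 2.43). All 10 differences were positive, but for some members the sign rested on the first control array. Jon25Biii, Jon44E and Jon99Fi had normalized log2 levels of 10.76, 8.67 and 10.15 on the second control array. Their E2f1 mutant means were lower, at 10.49, 8.29 and 9.55. For the other members the mutant mean lay above that array. The median of the differences was 1.32, beside -0.02 over all units. It was 0.55 without the first control array and 2.42 without the second. Both calls were lost without the first control array and without the first E2f1 mutant array, leaving 0 members, and with the second control array left out the count was 5. With the control level set to the stage index of the mutants by interpolation between the control ages, Jon66Ci and Jon65Aiv again passed, with log2 differences of 3.69 and 2.33. The median was then 0.93, and Jon99Fi stood at -0.12. That setting assumes a straight line between the control ages. The members' mean log2 level was 7.61 and 9.17 on the younger control arrays, at an index of -0.043 and 0.043. This gap is wider than the line gives for these indices, so the setting cannot settle the part of embryo age.

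In Dp mutants at 8 to 10 h, 4 of 10 members were higher and none was lower, where 2.08% of all units were higher. Jon66Ci was higher by 4.17 ± 0.70 (adjusted p = 0.00548), against a control level at the floor on 1 array and just above it on the other, at a mean log2 level of 5.62 where the floor is 5.57. Jon65Aiv was higher by 3.70 ± 0.53 (adjusted p = 0.00181), Jon99Fii by 3.12 ± 0.56 (adjusted p = 0.00778) and Jon65Aiii by 2.45 ± 0.44 (adjusted p = 0.0072). Jon99Fii had 18437.2 and 5259.7 in Dp mutants, against 653.5 and 1783.3 in control embryos. Jon65Aiii had 7132.2 and 2536.8 in Dp mutants, against 561.4 and 1099.1 in control embryos. The groups did not overlap for either gene, though the Dp mutant arrays differed from each other. Jon99Fi had 10568.3 and 1519.3 in Dp mutants, against 208.4 and 1124.6 in control embryos, and missed the threshold (2.97 ± 0.87, adjusted p = 0.0698). The remaining members had adjusted p from 0.0957 to 0.256, and 9 of the 10 had an unadjusted p under 0.05, as 9.63% of all units did in that direction. The median was 2.39, beside -0.04 over all units; it was 1.47 without the first control array, 3.44 without the second and 1.51 without the first Dp mutant array. Jon66Ci and Jon65Aiv alone passed without the first control array or without the first Dp mutant array. Without the second control array the count was 8, and without the second Dp mutant array 7. The same 4 members passed with the control level interpolated to the stage index, with a median of 1.73. As for E2f1 mutants, that setting cannot settle the part of embryo age. Markers of other tissues differed on these arrays as well. All 7 muscle markers had positive differences in Dp mutants (median 1.51), 0 of them passed, and their summed signal was 41235 and 18017 in Dp mutants, against 13376 and 17570 in control embryos, with 0 of 9 probe sets at the floor on both arrays of either group. Salivary gland and fat body markers summed to 19690 and 3412 in Dp mutants, against 1494 and 2186 in control embryos, with 3 and 4 of 11 probe sets at the floor on both arrays. Of 5 tested, 1 was higher in Dp mutants, a probe set of Adh and Adhr (log2 difference 3.30). The part of these tissues in the Jonah differences was not tested.

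The mutants were also compared with each other at this age. The log2 difference of E2f1 mutants over Dp mutants was negative for all 10 members, and 0 passed by limma, where 0.992% of all units passed in either direction. Of the 10, 2 had an unadjusted p under 0.05, as 6.82% of all units did in that direction: Jon99Fi at -2.40 (95% interval -4.26 to -0.54) and Jon99Fii at -1.34 (-2.54 to -0.14). Jon66Ci, whose highest levels were in these mutants, had a difference of -0.18 with an interval of -1.68 to 1.32.

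The change between the ages was tested directly as the E2f1 mutant difference at 14 to 16 h minus that at 8 to 10 h. It was negative for all 10 members and passed for 7, where 1.83% of all units passed in that direction. Jon99Fii had a value of -6.15 ± 0.80 (adjusted p = 0.000723), from a difference of -4.36 at 14 to 16 h and of 1.78 at 8 to 10 h. Jon99Fi, Jon44E, Jon25Bi, Jon65Aiv and Jon25Bii had values from -5.99 to -2.47. That of Jon66Ci is a bound, -5.47 or lower, since both older mutant arrays and 1 younger control array were at the floor. Jon66Ci and Jon65Aiv had passed at 8 to 10 h and not at 14 to 16 h. Jon99Fi, Jon44E, Jon25Bi and Jon25Bii had passed at 14 to 16 h and not at 8 to 10 h. How much each age gave to the term was not tested. Jon65Aiii (-2.16, adjusted p = 0.0731), Jon25Biii (-3.73, adjusted p = 0.0959) and Jon66Cii (-1.70, adjusted p = 0.34) did not pass. The median was -4.77, beside 0.04 over all units. Jon44E, Jon65Aiv, Jon66Ci and Jon99Fii passed without each of the 8 arrays in turn. They were the 4 left without the first control array at 8 to 10 h or the first E2f1 mutant array of that age, and 9 passed without the second control array. Of the other 3, Jon99Fi and Jon25Bii were each lost without 5 of the 8 arrays and Jon25Bi without 4. Of all calls in this test 33.6% were higher, and 48.7% with median centring in place of quantile normalization.

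Over-expression of E2F factors left the Jonah genes without a call. With E2f1 and Dp, Jon65Aiv had 2965.5 and 1349.3, against 213.3 and 715.5 in control embryos, with no overlap, but did not pass (log2 difference 2.32 ± 0.53, adjusted p = 0.163). In that cross 0 members passed by limma, where 0.0891% of all units passed in either direction, and 3 had an unadjusted p under 0.05 (Jon65Aiv, Jon66Ci and Jon99Fii), as 4.42% of all units did in the higher direction. All 10 differences were positive, with a median of 1.07, beside -0.02 over all units. The median was 0.14 without the first control array and 2.04 without the second. Jon25Bi, Jon44E and Jon99Fi had mean log2 levels of 8.11, 8.58 and 9.89 in this cross. The second control array was higher for them, at 8.73, 8.67 and 10.15, and lower for the other members. The stage index was 0.141 and 0.108 in this cross, above both control arrays of that age, and its part was not tested. Such values can arise in part from picking the probe sets of the index on the control arrays. With the control level interpolated to the index the median was 0.67. Without the second control array Jon65Aiv alone passed. With E2f2 and Dp, 0 passed, where 0.078% of all units passed, and 0 members had an unadjusted p under 0.05, as 8.8% of all units did. The log2 difference was positive for 7 members and negative for 3, with a median of 0.64. That median was -0.25 without the first control array and 1.09 without the second. Jon99Fii had 1429.8 and 1193.2 with E2f2 and Dp, against 653.5 and 1783.3 in control embryos, both values inside the control range. In the direct comparison of the crosses, E2f1 and Dp over E2f2 and Dp, 0 members passed, where 0.301% of all units did. Of the 2 members with an unadjusted p under 0.05, as 6.12% of all units had in the higher direction, Jon44E had 529.2 and 292.5 with E2f1 and Dp, against 64.1 and 81.1 with E2f2 and Dp (2.47, 95% interval 0.88 to 4.07). The other was Jon65Aiv at 1.38.

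With the E2f1 fragment and with Rbf1, which oppose E2F activity, none of the 10 members passed, and their values went both ways. The log2 difference was negative for 9 members with the fragment and for 8 with Rbf1. Jon99Fi had 24.2 and 117.1 with the fragment and 194.9 and 71.6 with Rbf1, against 208.4 and 1124.6 in control embryos. Jon99Fii had 241.4 and 354.7 with the fragment and 550.8 and 264.9 with Rbf1, against 653.5 and 1783.3 in control embryos. Both crosses lay below both control arrays for these genes. Jon66Ci went the other way, at 0.99 with the fragment and 1.14 with Rbf1. It had 31.5 and 202.9 with the fragment and 126.3 and 76.5 with Rbf1, against 43.3 and 49.3 in control embryos. With 1 fragment array and 1 control array at the floor, the fragment and control arrays overlapped for this gene. Jon66Cii stood at 0.50 with Rbf1. With the fragment 0 members passed by limma, where 0.791% of all units passed in either direction. Of the members 5 had an unadjusted p under 0.05, as 5.4% of all units did in the lower direction, and the median was -1.03. With Rbf1 0 passed, where 1.44% of all units passed, 5 had an unadjusted p under 0.05, as 5.6% of all units did in that direction, and the median was -0.99. Both medians rested on the control arrays: without the first they were -1.80 with the fragment and -1.83 with Rbf1, and without the second -0.35 with the fragment and -0.17 with Rbf1. Of the 7 further Jonah probe sets, 1 was lower with Rbf1, that of Jon65Ai (-2.11, adjusted p = 0.0352). The members with an unadjusted p under 0.05 in both crosses were Jon25Bii, Jon44E, Jon99Fi and Jon99Fii, and both crosses share the control arrays. The smallest adjusted p was that of Jon99Fii, 0.188 with the fragment and 0.262 with Rbf1. Markers of other tissues were also low with the fragment: 4 of 4 larval cuticle genes and 4 of 7 muscle markers were lower there. Summed cuticle signal was 548 and 5063 with the fragment and 7568 and 5808 with Rbf1, against 11501 and 25441 in control embryos, with 3, 2 and 2 of 7 probe sets at the floor on both arrays. The stage index was -0.059 and -0.023 with the fragment and 0.034 and 0.045 with Rbf1, and its part was not tested.

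Across the 9 groups each member was placed in order of its mean log2 level. The highest mean log2 level was in control embryos at 14 to 16 h for Jon25Bi, Jon25Biii, Jon44E, Jon65Aiii and Jon99Fi, and in Dp mutants for the other 5. The lowest was with the E2f1 fragment for 7 members, in E2f1 mutants at 14 to 16 h for Jon25Bi and Jon66Ci, and with Rbf1 for Jon65Aiii. Neighbours in these orders mostly overlapped: in 8 of 8 neighbouring pairs of groups for Jon25Bi, and in 5 of 8 for Jon25Biii, Jon65Aiii and Jon99Fii. Jon99Fii had Dp mutants and older control embryos at a log2 level of 13.21 and 13.08, and E2f1 mutants at 14 to 16 h, Rbf1 and the fragment at 8.71, 8.61 and 8.23.

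Over the 18 arrays, Jon99Fii followed the mean of the other members most closely (Pearson r = 0.97), then Jon65Aiv and Jon99Fi (0.93 each). Jon65Aiii (0.77), Jon66Cii (0.60) and Jon66Ci (0.58) followed it least. Jon66Cii, with a highest signal of 343.2, passed in none of the 12 comparisons. The adjacent Jon66Ci passed in 4, though its mean log2 level was lower (7.25, against 7.58 for Jon66Cii). These correlations are descriptions over arrays that share groups and ages. The probe set of Jon99Fii may read transcripts of Jon99Fi and other relatives, which can raise its correlation.

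The genes outside the family whose signal was most like the mean of the 10 members were CG10911 (Pearson r = 0.945 over 18 arrays), CG14302, CG12310, CG10910, epsilonTry, CG13323, LysB and yip7 (0.921). epsilonTry encodes a trypsin, LysB a lysozyme of the larval gut, and yip7 another serine protease. CG10911 had a log2 difference of -4.96 between E2f1 mutants and control embryos at 14 to 16 h, and epsilonTry of -3.44.

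Other genes of the gut were counted from lists. Of the 7 further Jonah probe sets, 4 were lower in E2f1 mutants at 14 to 16 h (median log2 difference -2.35), and 3 were higher in Dp mutants. Several of the 7 are annotated jointly to Jon99Cii and Jon99Ciii and may share transcripts, so these counts are of probe sets and not of separate genes. Over all units 3.84% were lower in the older E2f1 mutants and 2.08% were higher in Dp mutants, the shares beside which these counts and those of the following lists stand. Of 8 trypsin genes tested, 3 were lower in the older E2f1 mutants (alphaTry at -4.30, betaTry at -4.26 and epsilonTry at -3.44). zetaTry at -1.40 and lambdaTry at 0.64 did not pass. Of 12 other gut enzymes tested, 4 were lower there, all lysozymes (LysB, LysC, LysD and LysE), whose probe sets may share transcripts. The lysozyme LysS at -0.61 and the maltase Mal-A1 at -1.27 did not pass. Of 9 regulators of endoderm and gut tested, 1 was lower in the older E2f1 mutants: byn at -2.09, a factor of the hindgut. The regulators srp, an endodermal GATA factor, at 0.73, and fkh, at 0.89, did not pass. GATAe, a GATA factor of the midgut, stood at 0.28 (adjusted p = 0.796). LysC, LysE, byn and GATAe were named after their values were seen. In Dp mutants 2 of 8 trypsins, 6 of 12 gut enzymes and 0 of 9 regulators were higher.

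**Figure D4:**
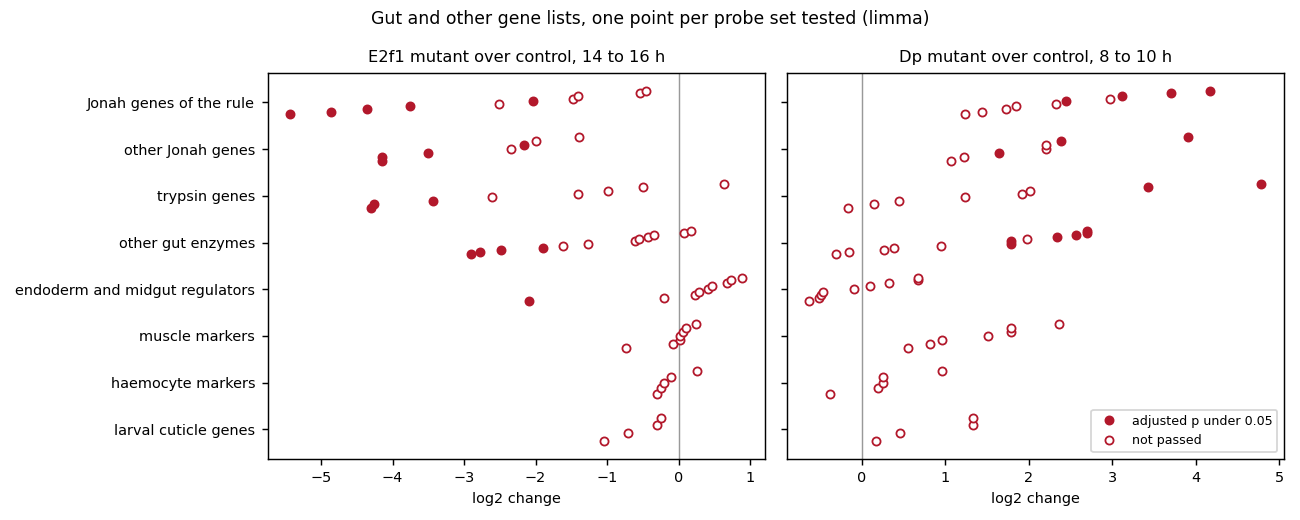
Log2 change (horizontal axis) of each probe set tested in the Jonah genes and 7 other lists (vertical axis), for E2f1 mutants over control embryos at 14 to 16 h on the left and Dp mutants over control embryos at 8 to 10 h on the right, filled where the adjusted p was under 0.05. On the left the Jonah genes run from -5.43 to -0.46 and the 7 muscle markers from -0.73 to 0.24.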

How the data were processed

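Whole-embryo RNA was measured on 18 arrays. The deposited table holds linear probe-set intensity, which the authors scaled to a common trimmed mean, as its values show; the software that made it is not given in the sources used here. Probe sets were named from the platform annotation (12442 with 1 gene, 327 with several, 1197 with none). The array medians spanned 0.244 log2 units, so intensity was quantile normalized. Signals under the 20th percentile (47.5) were set to that floor, and values were log2 transformed. The dimmest 30% of probe sets by mean were left out, and the brightest probe set of each gene was kept, giving 8975 units; all 10 members were kept. limma 3.58.1 in R 4.3.3 fitted 9 group means (trend, 9 residual degrees of freedom, 2 arrays a group, two-sided), with Benjamini-Hochberg adjustment over all units and a threshold of 0.05. In simulated data for E2f1 mutants over control embryos at 14 to 16 h, 56.7% of 4-fold changes were recovered among 8964 units. The number of arrays limits the precision. Jonah genes are all named in every comparison; of other lists up to 4 genes with the smallest p between control ages, and the 8 genes most like the family mean. Members and lists were chosen with earlier results of these data known. Scaling, floor, filter, prior, samples, replicate number and single arrays were varied. Every one of the 18 arrays was used. No sequence is printed.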

Additional observations from a re-analysis of the deposited data

Results flagged for a closer look

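For 7 Jonah genes the difference between E2f1 mutants and control embryos was not the same at the 2 ages, by limma's test of the 14 to 16 h difference minus the 8 to 10 h difference. The value was -6.15 for Jon99Fii (adjusted p = 0.000723), -5.99 for Jon99Fi (adjusted p = 0.0171), -5.82 for Jon44E (adjusted p = 0.00785), -5.17 for Jon25Bi (adjusted p = 0.0237), -4.37 for Jon65Aiv (adjusted p = 0.00597) and -2.47 for Jon25Bii (adjusted p = 0.0274). For Jon66Ci it was a bound, -5.47 or lower (adjusted p = 0.00785), with both E2f1 mutant arrays at 14 to 16 h and 1 control array at 8 to 10 h at the floor. The ages also differ in how mutants were picked, by sorter at 8 to 10 h and by hand at 14 to 16 h, which cannot be told apart from age here.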

How the results depend on the processing

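For members that passed a test, no value reversed under the alternatives run: of 506 such values 436 kept direction and side of the threshold, and 70 kept direction but no longer passed. Among members that did not pass, Jon99Fi in E2f1 mutants at 8 to 10 h changed sign with the control level interpolated to the stage index, to -0.12 in place of 0.57. Against the second control array of that age alone, Jon99Fi, Jon25Biii and Jon44E lay below control in E2f1 mutants. So did Jon99Fi, Jon44E and Jon25Bi with E2f1 and Dp. Testing without the filter on dim probe sets, or every probe set, left 4 members in the test of the E2f1 mutant difference between ages, and testing every probe set left 3 in E2f1 mutants with age. Fitting only the groups compared left 1 member in E2f1 mutants and 1 in Dp mutants at 8 to 10 h, with few residual degrees of freedom. Leaving out single arrays gave 3 to 8 members in control embryos with age, 3 to 4 in E2f1 mutants with age, 3 to 5 in E2f1 mutants at 14 to 16 h, 0 to 5 in E2f1 mutants at 8 to 10 h, 2 to 8 in Dp mutants, 4 to 9 in the test between ages and 0 to 1 with E2f1 and Dp. The cause of these shifts was not tested. With the replicate number as a block, 3 members passed in E2f1 mutants at 8 to 10 h and 8 in the test between ages, each adding Jon65Aiii, and it changed no other call. Over 36 pairs of groups, deviations of same-numbered arrays correlated between -0.16 and 0.15, with 4 above 0.1. These values show no strong shared shift by replicate number. They cannot show whether same-numbered samples were handled together. Over all units, calls in Dp mutants were 359, against 166 without the trend, 236 with the control level interpolated and 7 with only the groups compared, and calls in E2f1 mutants at 14 to 16 h were 503, against 162 with only the groups compared. Deposited scaling put 33.1% of Rbf1 calls in the higher direction, against 49.6% after quantile normalization. The median of all units in E2f1 mutants with age was -0.15 after quantile normalization, -0.25 with deposited scaling and -0.12 with median centring, and the members' median relative to the first was -1.82. Under these scalings and median centring every member kept its sign in every comparison, except Jon99Fi with E2f2 and Dp. Signals near the floor limit Jon66Ci, at the floor on 5 of 18 arrays.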
